A study of Homo sapiens with 12 samples.

Results

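The ATR inhibitor ceralasertib (ATRi) was given to cells that were losing TIMELESS, and their RNA is described here against RNA from cells that lost TIMELESS without the inhibitor. The comparison holds 6 of the 12 libraries of the series, chosen by their titles: 3 from cells kept for 40 h with 5-Ph-IAA and ATRi (5-Ph-IAA/ATRi) and 3 from cells kept for 40 h with 5-Ph-IAA alone. All 62700 genes of the deposited table were considered. Every library is poly(A) RNA of HCT116 TIM-mAID, a human colorectal cancer line in which TIMELESS (TIM) carries a mini auxin-inducible degron (mAID) introduced by CRISPR knock-in, so the controls carry the tag too. 5-Ph-IAA is an auxin analogue that directs degron-tagged proteins to a ubiquitin ligase, and it and ceralasertib were each used at 1 µM from stocks in DMSO. The remaining 6 libraries, 3 with DMSO and 3 with ATRi alone, also at 40 h, gave the effect of the same inhibitor in cells with TIMELESS. The series' design text calls the 3 libraries of a group biological replicates. The groups come from a single tagged line, and whether it is a single clone is not given in the sources used here. By its title the series concerns how DNA-PKcs, JNK and p53 steer cells towards death in replication catastrophe.

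ATR is the kinase that senses single-stranded DNA at stalled replication forks. Through CHK1 it slows origin firing and holds cells back from mitosis. TIMELESS, with its partner TIPIN, travels with the replisome, couples the helicase to the polymerases and helps pass the ATR signal to CHK1. When forks break, ATM and DNA-PKcs signal to p53, which raises the transcription of genes for arrest, repair and death, and p21, one of its targets, leads to repression of genes of mitosis and replication. HCT116 cells are known to have wild-type p53.

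Library totals ran from 27.7 to 34.7 M (1e6) estimated counts over the 12 libraries. They were 28.3 ± 0.188 M with 5-Ph-IAA/ATRi and 31.2 ± 3.12 M with 5-Ph-IAA (SD, n = 3 each; 2-sided exact permutation p = 0.4, where 3 against 3 can go no lower than 0.1). Mitochondrial transcripts took 13.6%, 10.02% and 6.79% of the counts in 5-Ph-IAA libraries 1 to 3 and 13.9%, 12.03% and 10.7% with 5-Ph-IAA/ATRi (difference of means 2.08 percentage points, exact permutation p = 0.4); the part of this share in the results was not tested beyond the covariate fits given in the closing section. Of 17 epithelial markers 12 were above 1 CPM (counts scaled to a total of 1e6) in at least 1 of the 6 libraries. The summed level of the 17 was 5289 to 7017 CPM with 5-Ph-IAA and 10490 to 11920 CPM with 5-Ph-IAA/ATRi. The markers did not rise as a group: of 12 tested 7 had a positive and 5 a negative log2 fold change (median 0.12). KRT8, KRT18 and KRT19 were higher with the inhibitor without overlap. EPCAM (387 to 498 CPM against 333 to 376 CPM with the inhibitor), ESRP1 and GRHL2 were lower without overlap. KRT8, KRT18, KRT19 and EPCAM were high, while the intestinal markers VIL1, CDX1, CEACAM5, CEACAM6 and LGALS4 were below 1 CPM in all 6. Of 25 markers of blood, stromal, endothelial, liver, nerve and muscle cells 20 were below 1 CPM in all 6, with a summed level of 54.2 to 112 CPM and 86.3 to 106 CPM in the same order. The highest of the 25 was the stromal marker COL1A1, at 35.9 to 98 CPM with 5-Ph-IAA and 42.6 to 69.2 CPM with 5-Ph-IAA/ATRi. The muscle marker DES was at 2.56 to 4.12 CPM and 2.41 to 4.72 CPM. PTPRC, the pan-leukocyte marker, was listed at 0 in all 3 5-Ph-IAA libraries and reached at most 0.178 CPM with the inhibitor. As in any bulk sample, a change in the share of cells of a cycle phase and a change in RNA per cell cannot be told apart.

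Adding the inhibitor to TIMELESS-depleted cells moved RNA in both directions. Of 18049 genes tested, 768 rose (4.26%) and 883 fell (4.89%) at an edgeR adjusted p under 0.05, 362 of the rises (2.01%) and 426 of the falls (2.36%) by at least 2-fold. At least 4-fold were 103 rises and 121 falls. All 1651 called genes (9.15%) had the 3 libraries of one group wholly above or below the 3 of the other, which was so for 13.6% (higher) and 14% (lower) of all genes tested. Gene span and type were taken only for genes matched to RefSeq: 854 of the 883 that fell, 686 of the 768 that rose and 15704 of the 18049 tested. Matched genes that fell were long and nearly all protein coding. Their median genomic span was 41.9 kb, against 16.3 kb for matched genes that rose and 26.6 kb for all matched genes. Of the matched genes that fell 96.4% coded for protein, against 86.9% of those that rose and 86.2% of all matched. The counts depended on each library. Without 5-Ph-IAA/ATRi 1, 2 or 3 they were 367 and 425, 367 and 431, and 331 and 385, and without 5-Ph-IAA 1, 2 or 3 they were 519 and 687, 447 and 649, and 557 and 738. With the set number as a block they were 1649 and 1896, and 767 of the 768 rises and all 883 falls were among them. Counts of list members given below with the block or without a library rest on these larger or smaller totals.

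**Figure D1:**
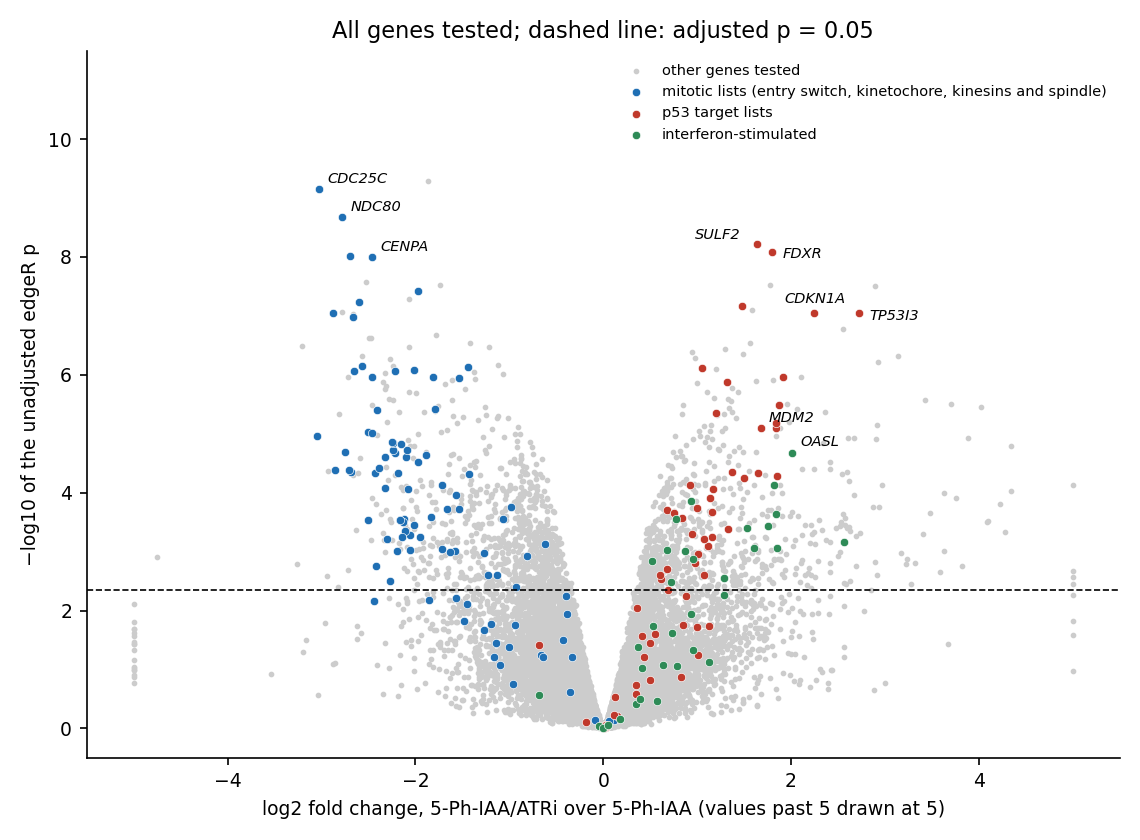
Log2 fold change of 5-Ph-IAA/ATRi over 5-Ph-IAA (x axis) against the negative log10 of the unadjusted edgeR p (y axis), one point per gene tested, with values past 5 drawn at 5 on the x axis. Genes of the mitotic lists (blue) lie mostly to the left, p53 target genes (red) and interferon-stimulated genes (green) mostly to the right, and the dashed line marks an adjusted p of 0.05.

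Among genes past the threshold with at least 5 CPM in the higher group, the 12 largest rises were those of 7SK, NR4A3, PURPL, CEACAM1, TP53I3, CCN2, CCN1, SDCBP2, SORCS2, CDKN1A, KRTAP2-3 and PICART1. Of these 7SK passed the filter on low counts only through libraries with the inhibitor, so its place is not a tested result. CDKN1A (ENSG00000124762.14; GRCh38.p14 chromosome 6, 36676463 to 36687332), which encodes p21, stood at 341, 478 and 487 CPM with 5-Ph-IAA and at 2026, 2112 and 2048 CPM with 5-Ph-IAA/ATRi. The lowest inhibitor library was over 4-fold above the highest control, and the log2 fold change was 2.24 ± 0.19 (SE; edgeR adjusted p = 7.84e-05). TP53I3, a p53-induced quinone oxidoreductase (chromosome 2, 24077433 to 24084834), went from 34.1, 37.3 and 25.3 CPM to 201, 247 and 191 CPM (2.72 ± 0.23, adjusted p = 7.84e-05). The groups were again far apart, and the order of the 3 inhibitor libraries differed from that of CDKN1A. CEACAM1, a cell adhesion receptor, rose from 1.2, 1.1 and 1.66 CPM to 9.38, 9.92 and 10.2 CPM (2.89 ± 0.22, adjusted p = 5.17e-05). PURPL, a long noncoding RNA induced by p53, had 3.30, 1.68 and 2.73 CPM with 5-Ph-IAA and 20.003, 16.4 and 22 CPM with the inhibitor (2.92 ± 0.29, adjusted p = 0.000284). In neither gene did the groups overlap.

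CCN1 and CCN2 encode matricellular proteins of the extracellular matrix. CCN1 rose from 12.3, 15.8 and 10.2 CPM to 77.7, 63.4 and 83.3 CPM (log2 fold change 2.55 ± 0.22, edgeR adjusted p = 0.000131), and CCN2 from 0.944, 1.71 and 2.21 CPM to 9.88, 8.14 and 11.8 CPM (2.61 ± 0.35, adjusted p = 0.00149). SDCBP2, which encodes the scaffold protein syntenin-2, rose by 2.54 ± 0.40 (adjusted p = 0.00344), and SORCS2, a sortilin-family receptor, by 2.34 ± 0.32 (adjusted p = 0.00166). KRTAP2-3, a keratin-associated protein gene with near-identical neighbours, had 2.22 ± 0.46 (adjusted p = 0.0131) and is uncertain for that reason. The p53-inducible noncoding RNA PICART1 had 2.20 ± 0.48 (adjusted p = 0.0159), a call lost without 5-Ph-IAA/ATRi 1 or 2. The noncoding RNA 7SK, a regulator of transcription elongation that has no poly(A) tail and many genomic copies, was listed at 0 counts in all 5-Ph-IAA libraries and at 305, 415 and 107 counts with the inhibitor. The mean of the 5-Ph-IAA/ATRi libraries, 9.93 CPM, was 91.1-fold above a floor of 3 counts per library, and the lowest of them had 107 counts. ATRi without 5-Ph-IAA gave 189, 0 and 104 counts. 7SK passed the filter on low counts only through libraries with the inhibitor, so its test is not given.

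**Figure D2:**
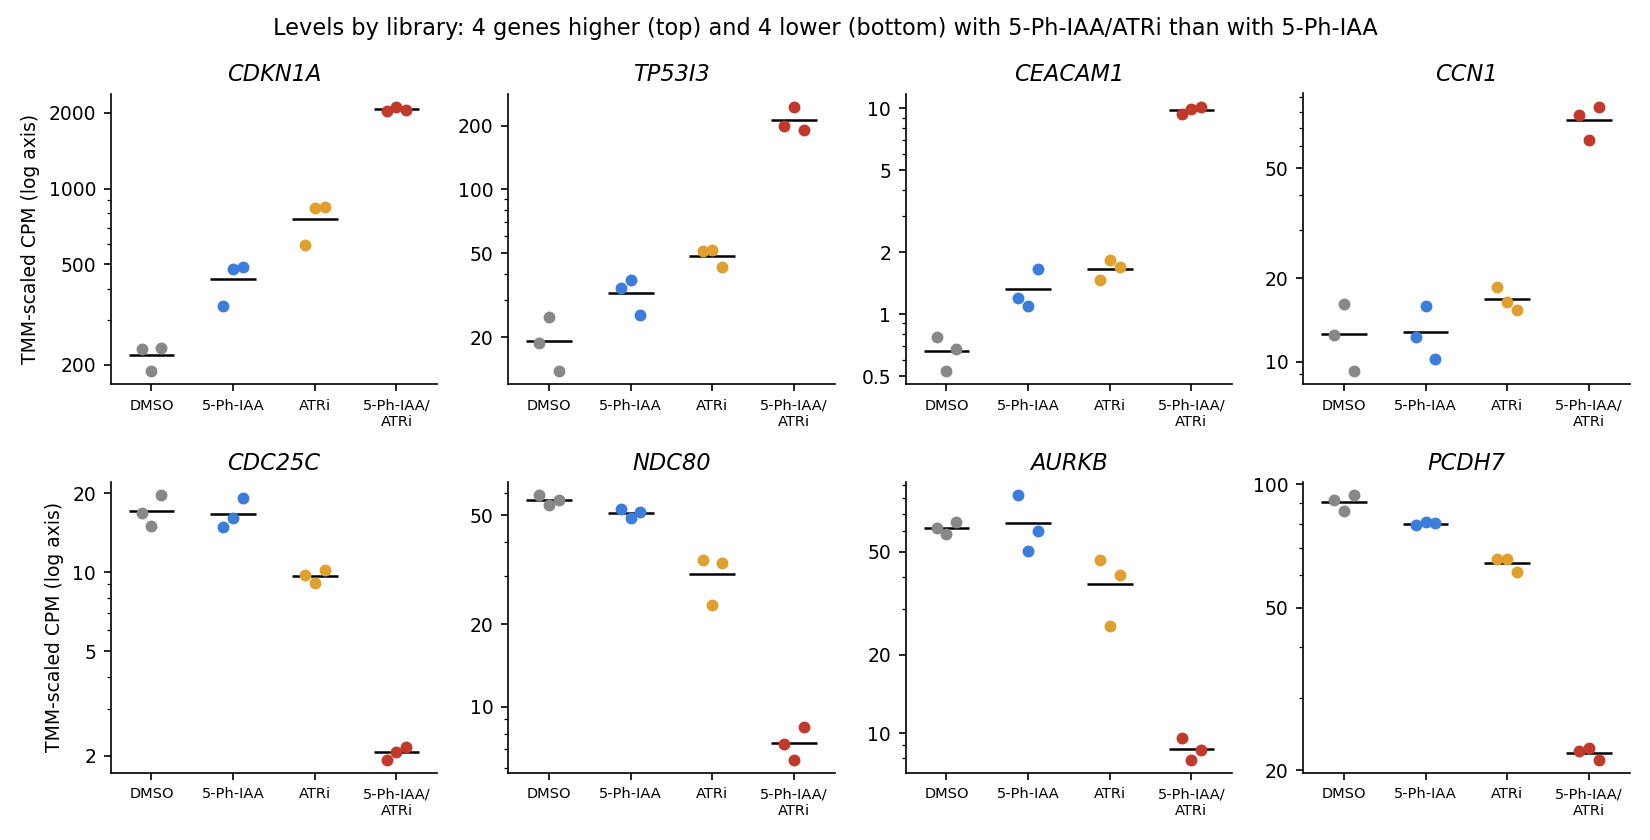
TMM-scaled CPM on a log axis in each of the 12 libraries for CDKN1A, TP53I3, CEACAM1 and CCN1 (top) and CDC25C, NDC80, AURKB and PCDH7 (bottom), with a line at each group mean of 3 libraries. In all 8 genes the 3 libraries with 5-Ph-IAA/ATRi lie beyond every other library, as for CDKN1A at 2026 to 2112 CPM against at most 842 CPM elsewhere.

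Most genes of the p53 feedback and arrest list rose. The list also holds other p53 targets, such as the repair genes XPC, DDB2 and POLH. Of its 23 genes 16 were called higher and none lower (69.6%, against 4.26% of all genes). Their median log2 fold change was 1.199, against -0.008 over all genes tested. MDM2, the ligase that degrades p53, rose from 138, 161 and 227 CPM to 490.4, 573 and 620.1 CPM (1.68 ± 0.22, edgeR adjusted p = 0.00118). TP53INP1, a p53-induced nuclear protein gene, rose by 1.91 ± 0.20, the stress-inducible sestrin gene SESN1 by 1.32 ± 0.14 and PHLDA3, a repressor of AKT signalling, by 1.47 ± 0.12.

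Among 23 tested p53 targets of cell death and metabolism 10 rose (43.5%, against 4.26% of all genes) and none fell (median 0.76). FDXR, the mitochondrial ferredoxin reductase, went from 154, 150.2 and 129 CPM to 477, 567 and 467 CPM (1.80 ± 0.12, edgeR adjusted p = 2.59e-05), and no 5-Ph-IAA library came near the inhibitor libraries. TRIAP1, a small mitochondrial protein gene, rose by 1.05 ± 0.11. The p53 list of adhesion, trafficking and surface genes had 11 of 16 tested members higher (68.8%) and none lower (median 0.94). The count was 5, 6, 7 and 7 without 5-Ph-IAA/ATRi 1, 5-Ph-IAA/ATRi 2, 5-Ph-IAA/ATRi 3 and 5-Ph-IAA 3. SULF2, an extracellular sulfatase acting on heparan sulfate, had the clearest rise of that list, from 23.1, 21.7 and 21.3 CPM to 69.8, 65.7 and 70.5 CPM (1.64 ± 0.11, adjusted p = 2.59e-05). DRAM1, a lysosomal regulator of autophagy, rose by 0.93 ± 0.15, the receptor tyrosine kinase gene EPHA2 by 1.17 ± 0.20 and the annexin gene ANXA4 by 0.68 ± 0.13.

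Fewer genes of the death machinery passed the test. The lists share members: FAS, TNFRSF10A and BAX were also counted among the p53 targets of cell death, and BIRC3 among the NF-kB and secretory genes. Of 24 tested genes of death receptor and caspase signalling 6 rose and none fell, with a median of 0.15. The share that rose was above the 4.26% of all genes. FAS, the death receptor, rose from 22.8, 24.9 and 33.1 CPM to 87.6, 93.1 and 109 CPM (1.84 ± 0.23, edgeR adjusted p = 0.00104). CFLAR, which encodes the caspase-8 inhibitor FLIP, rose from 32.6, 39.0 and 32.2 CPM to 52.5, 53.8 and 59.1 CPM (0.67 ± 0.13, adjusted p = 0.00789). The TRAIL receptor gene TNFRSF10A (0.98 ± 0.24) and the inhibitor of apoptosis gene BIRC3 (0.80 ± 0.19) also passed, but both calls were lost without 5-Ph-IAA 1 or 2 or any 5-Ph-IAA/ATRi library, where 2 of the 24 passed. In the BCL2 family of 17 tested genes 2 rose and 1 fell (11.8% and 5.88%, against 4.26% and 4.89% of all genes), with a median of 0.29. In that family 4 rose with the block, and 1 rose without 5-Ph-IAA 1 or any 5-Ph-IAA/ATRi library. The pore-forming effector gene BAX rose from 93.5, 69.0 and 69.0 CPM to 143, 151 and 121 CPM (0.84 ± 0.16, adjusted p = 0.00931), while that of the second effector, BAK1, was at 0.73 ± 0.21 (adjusted p = 0.0496, lost without 5-Ph-IAA 1 or 2 or any 5-Ph-IAA/ATRi library). BCL2L12, a BCL2-like gene, fell by 1.03 on the log2 scale (adjusted p = 0.00724). PMAIP1, which encodes the BH3-only protein NOXA, stood at 99.7, 191 and 121 CPM and at 225, 251 and 281 CPM, without overlap; its log2 fold change of 0.88 ± 0.26 missed the threshold (adjusted p = 0.0575) and passed with the block (0.93, adjusted p = 0.00439) and without 5-Ph-IAA 2.

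Few transcripts of the JNK and p38 kinase cascades passed the test, while 7 of 27 tested AP-1 and immediate early genes rose. Of 25 cascade genes 1 was higher and 2 were lower (4% and 8%, against 4.26% and 4.89% of all genes), with a median of 0.004. MAP2K3, a kinase upstream of p38, rose from 73.8, 62.7 and 66.9 CPM to 114, 97.5 and 114 CPM (0.68 ± 0.12, edgeR adjusted p = 0.00495). The stress kinase gene MAP3K5, encoding ASK1, was lower by 0.65 on the log2 scale (-0.65 ± 0.14, adjusted p = 0.0171, lost without 5-Ph-IAA 3 or any 5-Ph-IAA/ATRi library), as was MAPK12 (-0.44 ± 0.12, lost without any library but 5-Ph-IAA 3). MAPK8, which encodes JNK1, had -0.07 ± 0.11 (adjusted p = 0.772). With the block, which called 1649 and 1896 of the 18049 genes tested, 4 cascade genes were higher and 6 lower. Without 5-Ph-IAA 2, where 447 and 649 genes were called, the cascade counts were 2 and 1.

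The AP-1 and immediate early list had 25.9% of its tested members called higher, against 4.26% of all genes, and none lower. Its median was 0.59, and 12 members rose with the block. NR4A1, an orphan nuclear receptor gene (chromosome 12, 52022832 to 52059503), rose from 12.7, 10.3 and 9.23 CPM to 37.4, 36.8 and 36.0 CPM (1.77 ± 0.13, edgeR adjusted p = 5.17e-05). The 3 inhibitor libraries were nearly equal. Its relative NR4A3 rose from 0.690, 0.855 and 0.523 CPM to 6.33, 5.12 and 6.78 CPM (3.13 ± 0.31, adjusted p = 0.000242). FOSB, an AP-1 subunit gene, went from 2.80, 2.14 and 1.68 CPM to 10.3, 9.23 and 8.95 CPM (2.11 ± 0.22), and the small MAF gene MAFK rose by 0.98 ± 0.10. JUN, the AP-1 subunit that JNK phosphorylates, was at 23.3, 41.6 and 18.3 CPM with 5-Ph-IAA and at 54.7, 51.9 and 52.8 CPM with the inhibitor. Its groups did not overlap, the spread lay on the 5-Ph-IAA side, and the log2 fold change of 0.94 ± 0.30 missed the threshold (adjusted p = 0.0832) but passed with the block (1.03, adjusted p = 0.00484) and without 5-Ph-IAA 2 (1.35).

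Of 34 tested interferon-stimulated genes 16 rose (47.1%, against 4.26% of all genes) and none fell, with a median of 0.78, and 18 did not pass. OASL, a 2'-5' oligoadenylate synthetase-like antiviral gene, had 5.27, 6.99 and 5.17 CPM with 5-Ph-IAA and 18.3, 33.1 and 18.9 CPM with the inhibitor (2.01 ± 0.29, edgeR adjusted p = 0.0021). The antiviral gene IFIT3 went from 1.74, 3.33 and 2.85 CPM to 6.87, 11.4 and 9.80 CPM (1.82 ± 0.30), OAS1 from 1.42, 1.13 and 1.02 CPM to 2.90, 6.47 and 3.37 CPM (1.84 ± 0.35), and the nuclear body gene SP110 rose by 0.93 ± 0.17. In all 4 genes 5-Ph-IAA/ATRi 2 was the highest library. The count of 16 was 6 without that library, and 9, 10 and 10 without 5-Ph-IAA 1, 5-Ph-IAA 2 and 5-Ph-IAA/ATRi 3. Among 29 tested NF-kB and secretory genes 7 rose (24.1%), with a median of 0.49. The count was 12 with the block and 3 without 5-Ph-IAA 1 or any 5-Ph-IAA/ATRi library. The collagenase gene MMP1, counted among the 7, had 2, 7 and 2 counts with 5-Ph-IAA and 50, 49 and 63 counts with 5-Ph-IAA/ATRi. With DMSO it had 1, 3 and 4 counts. It passed the filter on low counts only through libraries with the inhibitor, so its test is not given. The macrophage growth factor gene CSF1 rose by 0.87 ± 0.15. IGFBP6, a binding protein for insulin-like growth factors, rose by 0.86 ± 0.17 (lost without 5-Ph-IAA/ATRi 3). RELB, an NF-kB subunit gene, had 0.79 ± 0.17 (lost without 5-Ph-IAA 1 or 3 or 5-Ph-IAA/ATRi 1 or 2).

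**Figure D3:**
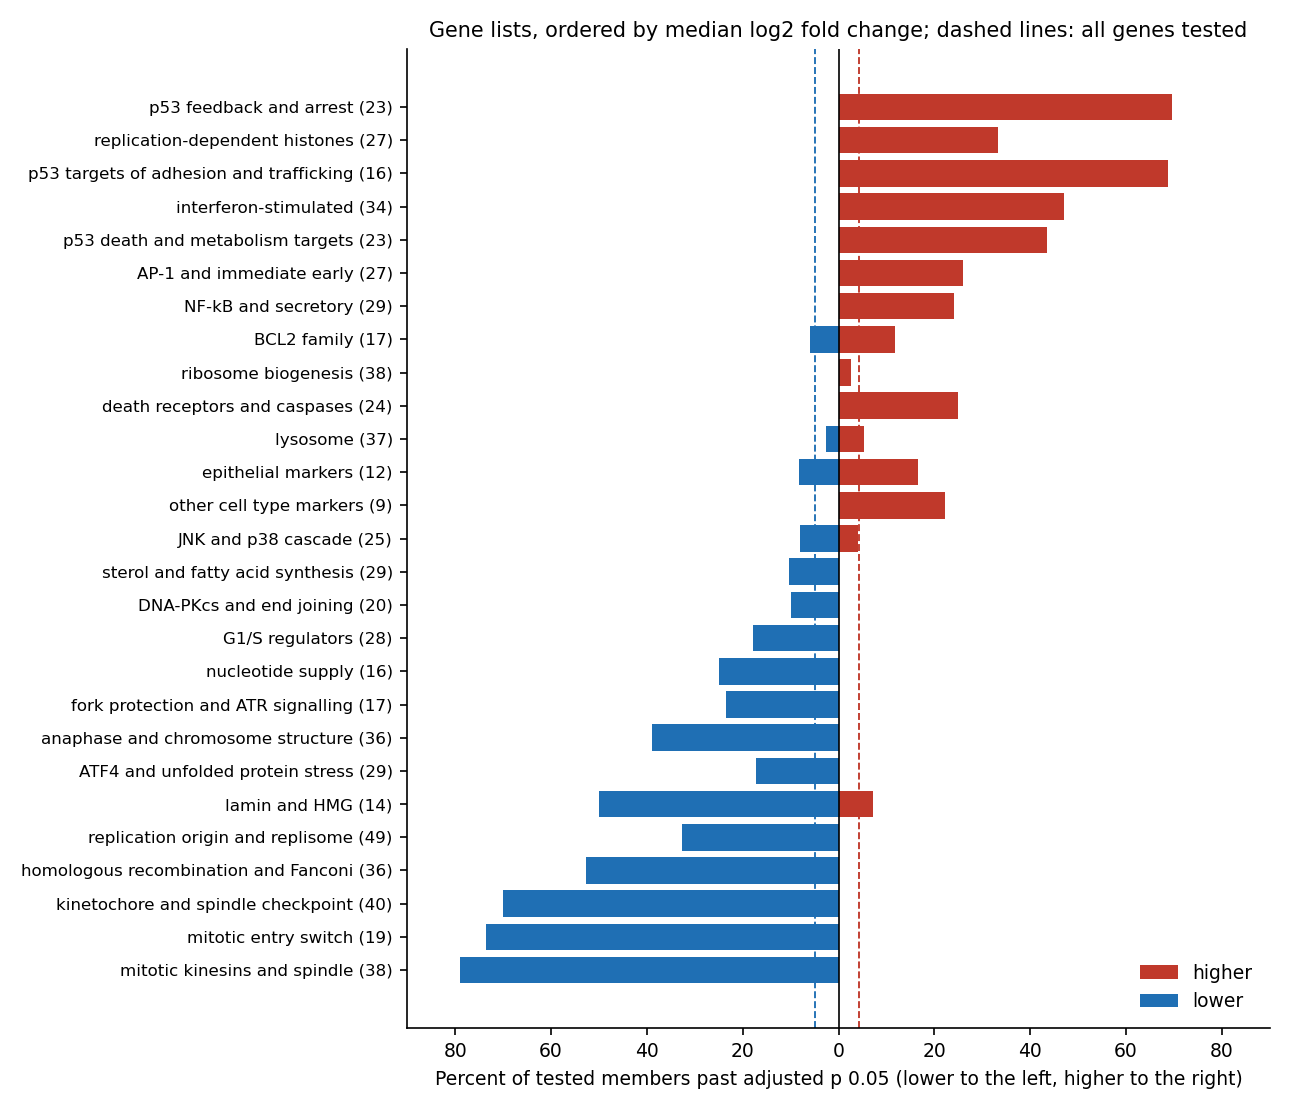
Percent of the tested members of each gene list past an adjusted p of 0.05, lower to the left (blue) and higher to the right (red), with the number tested in brackets, ordered by median log2 fold change; dashed lines show 4.26% and 4.89% for all genes tested. The p53 feedback list reaches 69.6% higher and the list of mitotic kinesins and spindle genes 78.9% lower.

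Genes of mitosis had the most negative medians of the 27 lists examined. Of 19 genes of the mitotic entry switch 14 fell, of 40 kinetochore and spindle checkpoint genes 28, and of 38 mitotic kinesin and spindle genes 30 (73.7%, 70.0% and 78.9%, against 4.89% of all genes). No member of the 3 lists rose, and their median log2 fold changes were -1.95, -1.91 and -2.04. CDC25C (ENSG00000158402.21; chromosome 5, 138285265 to 138338355) encodes a phosphatase of CDK1, the kinase that starts mitosis, and fell from 14.9, 16.1 and 19.2 CPM to 1.93, 2.07 and 2.17 CPM (-3.02 ± 0.16, edgeR adjusted p = 6.29e-06). All 3 inhibitor libraries were within a narrow band far below the controls. CCNB1, encoding cyclin B1, went from 196, 171 and 297 CPM to 45.2, 45.3 and 52.3 CPM (-2.22 ± 0.32, adjusted p = 0.00213). CCNB2 fell from 59.2, 67.6 and 89.9 CPM to 12.5, 13.7 and 13.1 CPM (-2.46 ± 0.26), and BORA, an activator of Aurora A and PLK1, by 1.81 and CDC25B by 1.53 on the log2 scale. The entry switch count was 9 without 5-Ph-IAA/ATRi 1 and 7 without 5-Ph-IAA/ATRi 2.

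Members of the kinetochore list ran from -3.05 to 0.07 on the log2 scale, and 12 of the 40 did not pass. NDC80 (chromosome 18, 2571557 to 2616635), of the complex that holds spindle microtubules, went from 52.6, 48.7 and 51.1 CPM to 7.30, 6.43 and 8.45 CPM (-2.78 ± 0.16, edgeR adjusted p = 1.27e-05). The control libraries differed little and the inhibitor libraries lay far below them. SPC25, of the same complex, fell from 25, 16.4 and 31.5 CPM to 2.25, 2.43 and 4.12 CPM (-3.05 ± 0.41). CENPA, the histone H3 variant of centromeres (chromosome 2, 26786056 to 26794589), fell from 20.7, 17.7 and 21.1 CPM to 3.08, 3.89 and 3.83 CPM (-2.46 ± 0.17, adjusted p = 2.59e-05), and HJURP, its chaperone, from 67.0, 53.9 and 71.0 CPM to 9.55, 8.97 and 11 CPM (-2.70 ± 0.18). CENPU and CENPI, of the constitutive centromere network, had -1.97 ± 0.15 and -2.86 ± 0.44.

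Genes of spindle motors, the chromosomal passenger kinase and cytokinesis were among those that fell. AURKB, the Aurora B kinase gene (chromosome 17, 8204731 to 8210575), fell from 82.3, 50.2 and 60.1 CPM to 9.63, 7.92 and 8.63 CPM (-2.88 ± 0.24, edgeR adjusted p = 7.84e-05). The kinesin genes KIF15, KIFC1 and KIF18B had -2.57 ± 0.26, -2.75 ± 0.39 and -2.70 ± 0.42, the citron kinase gene CIT -2.65 ± 0.27, the spindle protein gene TROAP -2.78 ± 0.23 and the kinetochore adaptor gene KNSTRN -1.44 ± 0.15. PIF1, a DNA helicase gene, had the largest fall among the named genes, from 25.3, 13 and 17 CPM to 2.04, 1.93 and 1.99 CPM (-3.21 ± 0.30, adjusted p = 0.000196). NEIL3, a DNA glycosylase gene, fell by 2.81 and CDCA3, a cell division cycle-associated gene, by 2.71 on the log2 scale. Of 36 genes of anaphase and chromosome structure 14 fell (38.9%, against 4.89% of all genes), with a median of -0.52. The count was 22 with the block, and 8, 8 and 9 without 5-Ph-IAA/ATRi 1, 2 and 3. UBE2C, the conjugating enzyme of the anaphase-promoting complex, fell from 151, 77.4 and 107 CPM to 19.1, 16.7 and 17.9 CPM (-2.64 ± 0.27), while the condensin gene NCAPG (-2.35 ± 0.25), TOP2A, encoding topoisomerase II alpha (-2.46 ± 0.29), and the securin gene PTTG1 (-1.73 ± 0.23) fell as well.

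The promoters of falling genes are shown because many share short elements. The window searched ran from 250 bases before to 50 after the first-listed RefSeq start (GRCh38.p14), on both strands. The cell cycle genes homology region, known from promoters of late cell cycle genes and searched as TTTGAA, was present in 18.4% of the promoters of genes that fell (130 of 705), in 45.9% of those that fell at least 4-fold (45 of 98), in 9.71% of those of genes that rose (53 of 546) and in 9.85% of all promoters of tested genes (1184 of 12018). Within 50 bases of the start the shares were 9.50%, 35.7%, 2.38% and 2.71%. The CCAAT box, searched as CCAAT, was in 43.3%, 67.3%, 31.9% and 36.4%, and an E2F motif, searched as TTCCCGC or one of its variants TTGGCGC or, in addition, TTCGCGC or, lastly, TTGCCGC, in 27.7%, 32.7%, 15.6% and 20.1%. By list, TTTGAA was in 72.7% of the promoters of mitotic kinesin and spindle genes (24 of 33), 8 of 16 entry switch promoters and 42.4% of kinetochore genes. In replisome genes it was in 2.56%, where 66.7% (26 of 39) held an E2F motif, as did 62.5% of homologous recombination and Fanconi genes. A TTGGCGC match can share bases with a CCAAT match. These matches are letters in a window, and no binding was measured.

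The promoters of 4 mitotic genes and the helicase gene PIF1 were picked because they hold TTTGAA near the start, and those of POLE and RAD51AP1 as E2F examples. Among the larger falls CDC25C, CCNB1, AURKB and CENPI hold no TTTGAA in the window searched. Only 1 listed start per gene was searched, so this does not show that these genes lack the element. For AURKB the 120 bases before that start (chr17:8210226-8210345) lie inside the gene span given above. Each line gives the 120 bases before the RefSeq start in the direction of transcription, with matches on either strand to TTTGAA, to the box element CCAAT or to the E2F motifs in capitals. PIF1 is at chr15:64825648-64825767, minus strand, CENPA at chr2:26785936-26786055, plus strand, CCNB2 at chr15:59105026-59105145, plus strand, KIF15 at chr3:44761674-44761793, plus strand, NCAPG at chr4:17810859-17810978, plus strand, POLE at chr12:132687343-132687462, minus strand, and RAD51AP1 at chr12:4538770-4538889, plus strand.
PIF1: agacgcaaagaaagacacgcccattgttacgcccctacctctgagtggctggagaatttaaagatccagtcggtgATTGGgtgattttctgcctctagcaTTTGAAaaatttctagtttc
CENPA: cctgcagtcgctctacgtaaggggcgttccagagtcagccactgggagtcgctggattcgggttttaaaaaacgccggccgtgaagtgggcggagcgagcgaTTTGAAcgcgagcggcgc
CCNB2: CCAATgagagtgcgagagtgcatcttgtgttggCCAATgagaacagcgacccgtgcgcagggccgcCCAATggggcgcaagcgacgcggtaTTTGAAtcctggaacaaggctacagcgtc
KIF15: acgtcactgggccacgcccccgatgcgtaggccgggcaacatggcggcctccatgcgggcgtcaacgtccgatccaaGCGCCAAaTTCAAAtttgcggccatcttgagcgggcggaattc
NCAPG: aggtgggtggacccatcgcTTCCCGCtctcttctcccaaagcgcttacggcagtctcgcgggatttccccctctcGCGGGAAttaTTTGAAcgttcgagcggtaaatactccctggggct
POLE: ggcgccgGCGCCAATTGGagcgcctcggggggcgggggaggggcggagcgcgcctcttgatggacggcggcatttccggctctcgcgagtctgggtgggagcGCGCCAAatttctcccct
RAD51AP1: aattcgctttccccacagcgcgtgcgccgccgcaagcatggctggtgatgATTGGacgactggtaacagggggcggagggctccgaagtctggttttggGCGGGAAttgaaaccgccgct
The TTTGAA match, in KIF15 read on the other strand, starts 20, 18, 29, 35 and 35 bases before the start in PIF1, CENPA, CCNB2, KIF15 and NCAPG. CCNB2 has 3 CCAAT matches upstream of it, and POLE and RAD51AP1 have E2F and CCAAT matches and no TTTGAA in this stretch.

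Of 49 origin and replisome genes 48 were negative, with a median of -1.17. Of the 49, 16 fell (32.7%, against 4.89% of all genes) and none rose. The count was 33 with the block (with 1 rise), 10 and 8 without 5-Ph-IAA 1 and 3, and 6, 2 and 5 without 5-Ph-IAA/ATRi 1, 2 and 3. TICRR, which loads the helicase activator at origins, fell from 28.1, 13.5 and 34.0 CPM to 4.51, 3.16 and 4.69 CPM (-2.61 ± 0.41, edgeR adjusted p = 0.00341). 5-Ph-IAA 2 was the lowest control for this gene, still above every inhibitor library. POLE, the catalytic subunit of the leading-strand polymerase, went from 108, 61.3 and 123 CPM to 34.1, 25 and 36.1 CPM (-1.62 ± 0.32, lost without 5-Ph-IAA/ATRi 2). DBF4, the activator of the CDC7 kinase, fell by 1.04 on the log2 scale, and the helicase component CDC45 had -2.11 ± 0.42 (lost without 5-Ph-IAA/ATRi 1 or 2).

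TIMELESS RNA is not what 5-Ph-IAA targets, so it does not check the labels. It stood at 39.5, 41.4 and 63.0 CPM with 5-Ph-IAA and at 17.6, 24.5 and 24.5 CPM with the inhibitor (-1.11 ± 0.30, edgeR adjusted p = 0.0394), a call that was lost when any 1 of the 6 libraries was left out. Of 17 genes of fork protection and ATR signalling 4 fell (23.5%, against 4.89% of all genes) and none rose, with a median of -0.34. The count of falls was 7 with the block and 2 without 5-Ph-IAA 1 or 3 or any 5-Ph-IAA/ATRi library. RHNO1, which helps the 9-1-1 clamp activate ATR, had the smallest adjusted p of the list, with a fall from 20.1, 21.7 and 21.4 CPM to 8.70, 9.08 and 9.30 CPM (-1.22 ± 0.12, adjusted p = 0.000196). The fork remodeller gene ZRANB3 fell by 1.39 on the log2 scale, and CLSPN, encoding the CHK1 mediator claspin, had -1.77 ± 0.45 (lost without 5-Ph-IAA 1 or 3 or any 5-Ph-IAA/ATRi library). CHEK1, encoding CHK1, was at 26.9, 23.5 and 51.2 CPM and at 15.5, 14.7 and 17.1 CPM; its -1.11 ± 0.39 missed the threshold (adjusted p = 0.111) and passed with the block (-1.01, adjusted p = 0.014). ATR (-0.05 ± 0.12) and TIPIN (-0.21 ± 0.22) did not pass, and their groups overlapped.

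Among 16 genes of nucleotide supply 4 fell and none rose (2 fell without 5-Ph-IAA/ATRi 2), with a median of -0.30. The share that fell was above the 4.89% of all genes. The thymidine kinase gene TK1 went from 201, 151 and 239 CPM to 53.2, 51.0 and 59.5 CPM (-1.85 ± 0.32, edgeR adjusted p = 0.00525). The ribonucleotide reductase gene RRM2 had -2.34 ± 0.50 (lost without 5-Ph-IAA/ATRi 1 or 2) and the dUTPase gene DUT -0.71 ± 0.15 (lost without 5-Ph-IAA/ATRi 2 or 3). Of 28 G1/S regulators 5 fell (17.9%) and none rose. With the block 8 fell and 4 rose. There were 3 and 2 falls without 5-Ph-IAA 1 and 3, and 1 without each 5-Ph-IAA/ATRi library. CKS1B, a CDK subunit, went from 73.1, 86.5 and 95.8 CPM to 42.8, 49.9 and 43.1 CPM (-0.91 ± 0.17, adjusted p = 0.00898). Its paralogue CKS2 (-1.15 ± 0.25) lost its call without any 5-Ph-IAA/ATRi library, and E2F2 (-2.09 ± 0.53) and the p18 gene CDKN2C (-1.48 ± 0.39) lost theirs without these or without 5-Ph-IAA 1 or 3.

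Of 36 homologous recombination and Fanconi genes 19 fell (52.8%, against 4.89% of all genes) and none rose, with a median of -1.42. The count was 9, 9 and 10 without 5-Ph-IAA/ATRi 1, 2 and 3, and 12 without 5-Ph-IAA 3. GEN1, a Holliday junction resolvase gene, fell from 29.4, 23.6 and 37.1 CPM to 8.95, 8.07 and 11.4 CPM (-1.66 ± 0.22, edgeR adjusted p = 0.00123). The nuclease subunit gene EME1 had -2.21 ± 0.35, the Fanconi core complex gene FANCA -1.93 ± 0.32 and RAD51AP1, encoding a DNA-binding recombination factor, -2.15 ± 0.36. Of 20 genes of DNA-PKcs and end joining 2 fell (10.0%, against 4.89% of all genes), with a median of -0.20. Only 1 fell without 5-Ph-IAA 1 or 2 or 5-Ph-IAA/ATRi 1 or 3. POLQ, the polymerase of theta-mediated end joining, went from 23.0, 14.7 and 29.3 CPM to 4.37, 3.02 and 5.18 CPM (-2.41 ± 0.32, adjusted p = 0.00139). The shieldin component MAD2L2 had -0.51 ± 0.12 (lost without 5-Ph-IAA 1 or 2 or 5-Ph-IAA/ATRi 1 or 3). PRKDC, which encodes DNA-PKcs, was at 223, 266 and 535 CPM and at 255, 220.3 and 337 CPM (-0.33 ± 0.44, adjusted p = 0.73), with wide overlap.

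Chromatin genes passed the test in both directions. Of 14 lamin, HMG and related genes 7 fell, a share above the 4.89% of all genes, and the list median was -1.07. Only 1, the lamin A gene LMNA, rose (7.14%, against 4.26% of all genes). The LMNA call was lost without 5-Ph-IAA 1, 5-Ph-IAA 3, 5-Ph-IAA/ATRi 2 or 5-Ph-IAA/ATRi 3. HMGB2, a chromatin architectural protein gene, went from 495, 322 and 365 CPM to 78.5, 92.4 and 79.8 CPM (-2.24 ± 0.23, edgeR adjusted p = 0.000303), and the lamin B1 gene LMNB1 from 88.7, 75.7 and 135 CPM to 23.0, 21.2 and 25.8 CPM (-2.1 ± 0.35). The histone variant genes H2AZ1 and H2AX had -1.26 ± 0.15 and -1.32 ± 0.21. Replication-dependent histone genes, whose RNAs mostly end in a stem-loop without a poly(A) tail, had 9 of 27 tested members higher (33.3%) and none lower. Their median was 1.18. H2BC21 went from 3.30, 4.83 and 3.51 CPM to 14.1, 13.5 and 13.4 CPM (1.81 ± 0.20, adjusted p = 0.000363), H2BC12 rose by 1.13 ± 0.15, H2BC4 by 1.80 ± 0.31 and H4C5 by 2.01 ± 0.38. Poly(A) selection reports only part of these RNAs, near-identical copies divide their reads, and 23 of the 50 members listed were too low to be tested.

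In metabolism, 5 of 29 tested genes of ATF4 and unfolded protein stress fell (17.2%, against 4.89% of all genes), with a median of -0.66. The count was 10 with the block, 8 without 5-Ph-IAA 3 and 1 without 5-Ph-IAA 2 or any 5-Ph-IAA/ATRi library. PHGDH, the first enzyme of serine synthesis, went from 112, 191 and 78.7 CPM to 31.2, 32.6 and 29.7 CPM (-2.03 ± 0.30, edgeR adjusted p = 0.00239). 5-Ph-IAA 2 was the highest control here and for ASNS, which stood at 309.6, 659 and 138 CPM and at 105, 91.2 and 87.5 CPM (-1.96 ± 0.50). The ASNS call was lost without 5-Ph-IAA 1 or 2 or any 5-Ph-IAA/ATRi library, and those of the cystine transporter gene SLC7A11 (-1.86 ± 0.45) and the folate enzyme gene MTHFD2 (-0.84 ± 0.21) without 5-Ph-IAA 2 or any 5-Ph-IAA/ATRi library. Of 29 sterol and fatty acid genes 3 fell (10.3%, median -0.12). They were the desaturase gene SCD, from 1657, 2246 and 2729 CPM to 803, 946 and 814 CPM (-1.37 ± 0.25), the carboxylase gene ACACA (-0.60 ± 0.12) and SREBF1, encoding a lipogenic transcription factor (-0.86 ± 0.17). In 37 lysosomal genes (2 higher, 1 lower, median 0.12) and 38 ribosome biogenesis genes (1 higher, median 0.23) the shares called, 5.41% and 2.63% higher, were near those of all genes. The lysosomal rises MAN2B1 and SMPD1 lost their calls when any 1 of the 6 libraries was left out, and the rise of RRP12 lost its call without 5-Ph-IAA 1 or 3 or 5-Ph-IAA/ATRi 1 or 3; with the block 5 lysosomal and 8 ribosome biogenesis genes rose and 4 lysosomal genes fell.

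Among the epithelial markers the keratin gene KRT8 rose from 2284, 2422 and 1997 CPM to 4541, 4772 and 5578 CPM (1.15 ± 0.15, edgeR adjusted p = 0.0011), its partner KRT18 had 1.05 ± 0.26 (lost when any library other than 5-Ph-IAA 1 was left out) and the epithelial splicing factor gene ESRP1 -0.69 ± 0.15 (lost without 5-Ph-IAA 2 or 5-Ph-IAA/ATRi 2 or 3). Among markers of other cells CD68, which encodes a lysosomal membrane protein, rose from 6.83, 16.9 and 13.2 CPM to 28.7, 37.1 and 35.0 CPM (1.45 ± 0.29). CD14 was at most 0.122 CPM with 5-Ph-IAA and at 0.497 to 0.751 CPM with the inhibitor; it passed the filter on low counts only through the inhibitor libraries, so its test is not given. ALB and VWF, the next by p in that list, did not pass and their groups overlapped.

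**Figure D4:**
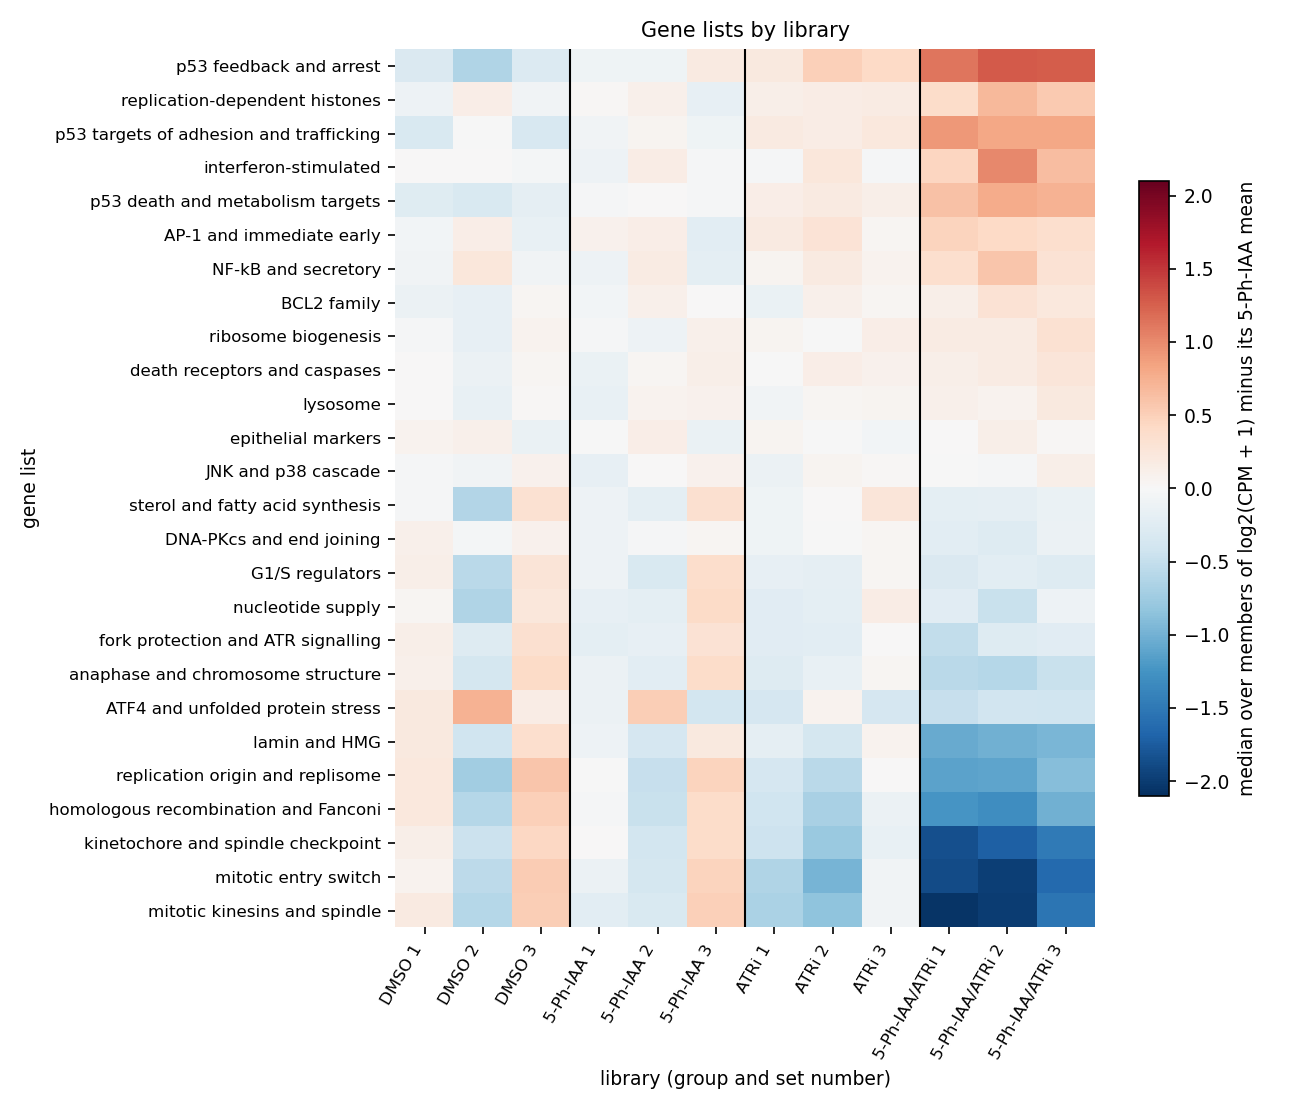
Median over the tested members of each gene list (rows; lists with at least 10 tested members) of log2(CPM + 1) minus the gene's mean in the 5-Ph-IAA libraries, in each of the 12 libraries (columns), red above and blue below 0. The 3 columns with 5-Ph-IAA/ATRi carry the strongest colours at the top and bottom; mitotic and replication rows also vary among the DMSO and 5-Ph-IAA libraries, with set 3 higher and set 2 lower.

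The same inhibitor without 5-Ph-IAA gave most of these genes a log2 fold change of the same sign, with smaller medians. ATRi against DMSO called 10 genes higher (0.0554%) and none lower by edgeR (868 genes, 4.81%, at an unadjusted p under 0.05; 34 lower by DESeq2), and all 10 were among the 768 that rose in TIMELESS-depleted cells. This comparison shares no library with the first. Of the 768 genes 701 (91.3%) were above 0 with ATRi alone, with a median log2 fold change of 0.30 against 0.96 in TIMELESS-depleted cells. Of the 883 that fell 830 (94.0%) were negative, with medians of -0.29 and -0.95. Both sets were chosen by their calls in TIMELESS-depleted cells, which favours larger values there, so the gap between the medians is no test. Over all 18049 genes 47.0% were positive with ATRi alone, and the 2 sets of log2 fold changes had a Pearson r of 0.455 and a Spearman rho of 0.492 across genes, which are not independent replicates. By list the median with ATRi alone was 0.77 for the p53 feedback genes, -0.57, -0.60 and -0.63 for the 3 mitotic lists, -0.46 for the replisome, 0.11 for both interferon-stimulated and AP-1 genes, and -0.57 for ATF4 genes.

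**Figure D5:**
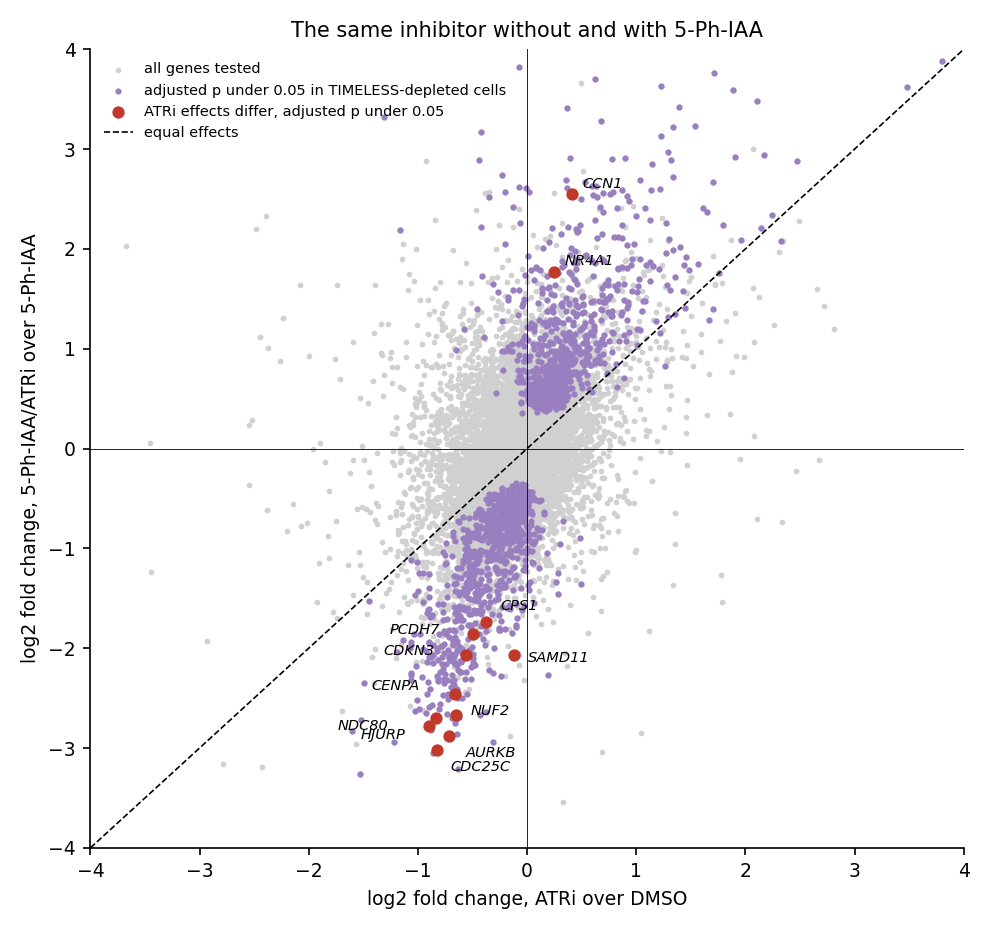
Log2 fold change of ATRi over DMSO (x axis) against 5-Ph-IAA/ATRi over 5-Ph-IAA (y axis), one point per gene tested, with 44 genes outside the drawn range of 4; purple points were called in TIMELESS-depleted cells, and the 12 red ones are genes whose 2 effects differed at an adjusted p under 0.05. CDC25C, at -0.82 and -3.02, lies far below the dashed line of equal effects, and CCN1 far above it.

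Whether the inhibitor's effect itself differed with TIMELESS loss was tested gene by gene as the difference of the 2 log2 fold changes. It passed for 12 of 18049 genes (0.0665%): 2 with a more positive (0.0111%) and 10 with a more negative effect (0.0554%) in TIMELESS-depleted cells (1305 genes, 7.23%, at an unadjusted p under 0.05). The counts of 2 and 10 became 44 and 163 with the block, 96 and 183 with the mitochondrial share as covariate and 67 and 145 by DESeq2, and 0 to 2 and 2 to 14 when a library was left out. CDC25C fell to 9.75, 9.10 and 10.2 CPM with ATRi from 16.8, 15 and 19.7 CPM with DMSO (-0.82 ± 0.15), against -3.02 ± 0.16 with 5-Ph-IAA, a difference of -2.20 ± 0.21 (edgeR adjusted p = 0.00407). PCDH7, a protocadherin gene (chromosome 4, 30720369 to 31146800), went from 79.4, 80.9 and 80.5 CPM to 22.3, 22.6 and 21.3 CPM with 5-Ph-IAA and from 91.9, 86.2 and 94.1 CPM to 65.6, 65.9 and 61.0 CPM without it (difference -1.36 ± 0.13, adjusted p = 0.00407). Both calls held when any 1 of the 12 libraries was left out. NDC80 (-1.88), CENPA (-1.80) and NR4A1 (1.53) were next by p, and each lost its call without 1 or more libraries, 5-Ph-IAA/ATRi 1 and 2 among them. None of the 23 p53 feedback genes passed this test; 20 of them had a positive difference, with a median of 0.45. The difference was 0.45 ± 0.25 for CDKN1A (unadjusted p = 0.11), 0.03 for SESN1 and, among the other p53 targets, 0.03 for BAX, 1.01 for PURPL (unadjusted p = 0.028) and 1.38 ± 0.30 for TP53I3 (unadjusted p = 0.00078, edgeR adjusted p = 0.213).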

How the data were processed

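Poly(A) RNA-seq of 12 HCT116 TIM-mAID libraries was used, 3 in each of 4 groups set by the sample titles. The values are estimated counts per gene that the authors deposited as 1 table; per the submitters' processing notes which give names without roles, the tools were Salmon 1.10.1, STAR 2.7.9a, SAMtools 1.17, Trim Galore 0.6.7, cutadapt 3.4 and FastQC 0.12.1 and the build GRCh38.p14. Neither the annotation release nor the strand setting is named in the sources used here, so overlapping and antisense genes, and genes with near-identical copies (7SK, histones, KRTAP2-3), are uncertain. Of the deposited counts 13.6% were not whole, 6.93% by more than 0.01, and all were rounded.

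Genes were filtered with edgeR's filterByExpr (minimum count 10, minimum total 15), which kept 18049 of 62700, and scaled by TMM. edgeR 4.0.16 (R 4.3.3, limma 3.58.1) fitted a quasi-likelihood model to all 12 libraries with 1 mean per group and 8 residual degrees of freedom. The quasi-likelihood F test was adjusted by Benjamini-Hochberg across the 18049 genes, and a gene was called at an adjusted p under 0.05; every adjusted p printed is from this test unless another is named. The median biological coefficient of variation was 0.214. The difference between the ATRi effects is the interaction of the same model. Fold changes are on the log2 scale with their standard errors, and levels are TMM-scaled CPM, which compare a gene between libraries but not genes of different length. p-values measure the spread between these libraries only. The code was tested on simulated data.

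Deviations from the group means of same-numbered 5-Ph-IAA and 5-Ph-IAA/ATRi libraries correlated at 0.375, 0.18 and 0.543 for sets 1, 2 and 3. All were above 0.1, so the set numbers were taken as pairing them, though only 2 of the 3 sets correlated best with their own number. For DMSO and ATRi the values were -0.0936, -0.0712 and 0.646. The main fit and its p-values hold no set term and so leave this pairing out. With the set number as a block 1649 and 1896 genes were called instead of 768 and 883. The text names 12 genes of the pathway, then the 12 strongest rises and 12 strongest falls among genes past the threshold with a symbol, at least 5 CPM in the higher group and no overlap between groups, up to 4 genes per list by p, and the 5 smallest p of the difference test. The comparison, the gene lists and the rule were chosen with earlier results of these data known. LMNA, and the genes of the difference test beyond the first 5, were named after their values were seen. Some genes that the rule names are not reported here. Alternatives were other scalings, filters and tools (DESeq2 1.42.0, limma-voom), a minimum fold of 1.5, a replicate block, the mitochondrial share as covariate, only the groups compared, and leaving out each library. Promoters and gene positions are from RefSeq on GRCh38.p14 and the annotation tables given with it.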

Additional observations from a re-analysis of the deposited data

Results flagged for a closer look

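The effect of the inhibitor differed between TIMELESS-depleted and DMSO cells, by the interaction test of edgeR at an adjusted p under 0.05, for 12 genes. The difference, as the log2 fold change with 5-Ph-IAA minus that without it, was -2.20 for CDC25C, -1.36 for PCDH7, -1.88 for NDC80, 1.53 for NR4A1, -1.80 for CENPA, -1.86 for HJURP, -1.36 for CPS1, -1.95 for SAMD11, 2.13 for CCN1, -2.16 for AURKB, -1.51 for CDKN3 and -2.02 for NUF2. CDC25C and PCDH7 kept their calls under all 20 alternatives, with an adjusted p of at most 0.0381. NDC80 lost its call without DMSO 1, DMSO 2, ATRi 3, 5-Ph-IAA/ATRi 1 or 5-Ph-IAA/ATRi 2, where its adjusted p reached 0.0858. The other 9 lost theirs under more of the settings that leave out a library, and SAMD11 under all 12 of them. CPS1 encodes carbamoyl phosphate synthetase, an enzyme of the urea cycle.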

How the results depend on the processing

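In TIMELESS-depleted cells the inhibitor called 768 genes higher and 883 lower. The counts were 1649 and 1896 with the replicate block, 2714 and 2778 with the mitochondrial share as covariate, 431 and 587 with only the groups compared, 146 and 179 with a minimum fold of 1.5, and 1139 and 1418 by DESeq2; without the count filter 458 were higher. Leaving out a library gave 331 to 557 higher and 385 to 738 lower. ATRi against DMSO called 10 higher and 0 lower, against 18 and 1 without the count filter, 55 and 45 with the block, 82 and 52 with the covariate, and 68 and 34 by DESeq2; with only the groups compared none was higher, 0, upper quartile scaling gave 1 lower, and leaving out a library gave 2 to 11 higher and 0 to 1 lower. The difference test called 2 higher and 10 lower, against 44 and 163 with the block, 96 and 183 with the covariate and 67 and 145 by DESeq2; 30 were lower without the filter, upper quartile scaling gave 1 higher, and leaving out a library gave 0 to 2 and 2 to 14. Signs turned only for genes that did not pass: leaving out a library gave -0.119 to 0.037 for ATR, -0.570 to 0.139 for PRKDC, -0.360 to 0.017 for TIPIN and -0.708 to 0.162 for VWF, and the covariate gave 0.14 for PRKDC. The cause was not tested. For the named genes 1911 values kept direction and call, 191 lost the call and 34 gained it; for the 12 genes of the difference test 141 kept it and 99 lost it. Whether DMSO and ATRi libraries are paired by number is not settled, as their same-numbered libraries correlated above 0.1 in set 3 only (0.646). Their block values rest on the set numbers of the titles. Among the named genes the block gave a call to CHEK1, JUN, PMAIP1, CTSH, GRHL2, MAPK8IP1, NOP16, PES1 and POLR1C. It changed no other call of this comparison, leaving aside 7SK, whose test is not given.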
